A study of Equus caballus with 24 samples.

Results

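The ligand and receptor families that guide growing axons were followed in the pituitary and the long bone of 2 horse breeds. Members were taken by gene name, as every semaphorin of classes 3 to 7, plexin, neuropilin, SLIT, ROBO, netrin, UNC5 receptor, ephrin and Eph receptor in the read table. Of its 24232 genes, 61 were members: 18 semaphorins, 2 neuropilins, 7 plexins, 3 SLITs, 4 ROBOs, 4 netrins, 4 UNC5 receptors, 6 ephrins and 13 Eph receptors. The rule used gene names and no measured value, but the families were picked with earlier results of these data known.

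Axon guidance cues are secreted or membrane-bound proteins that attract or repel the growth cone, the moving tip of an axon. Semaphorins signal through plexins, the secreted class with neuropilins as co-receptors; SLITs bind ROBO receptors, netrins bind UNC5 receptors and DCC, and ephrins bind Eph receptors on the neighbouring cell. Outside the nervous system the same families act in blood vessel growth, in immune cells and in bone, where for example EFNB2 and EPHB4 pass signals between osteoclasts and osteoblasts.

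RNA came from female Debao ponies (DPs), a small breed, and female Mongolian horses (MHs), a larger breed, with no treatment named in the labels. Group names give the breed (DP or MH), then the tissue (P for pituitary, LB for the epiphysis of a long bone), then the stage (J for juvenile, A for adult); there were 8 groups of 3 libraries, 24 in all. The replicates are separate animals as far as the labels go, both tissues came from the same 12 animals, and which 2 libraries share an animal is not given in the labels. Libraries held 11433209 to 27007342 reads on genes, of which the members took 0.0959% to 0.227% in pituitary (median 0.129%) and 0.0904% to 0.315% in long bone (median 0.232%).

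The labelled tissue was checked against marker lists. The summed level of 10 anterior pituitary hormone and cell identity genes was 11400 to 34500 CPM (reads per library, brought to a shared scale by TMM factors) in 7 pituitary libraries. It was 5.92, 28.5 and 11.3 CPM in MHPJ replicates 1 to 3, with TSHB at 0 in all 3 libraries, 42.2 CPM in DPPA replicate 1 and 11.5 CPM in MHPA replicate 1. In the juvenile pituitary, breed and hormone content therefore cannot be told apart. Among long bone libraries, MHLBA replicate 1 had the lowest member share (0.0904%), and the cartilage list summed to 54.7 CPM in DPLBJ replicate 1 against 5960 and 21400 CPM in the other DPLBJ libraries.

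Levels were compared between genes on the authors' RPKM, which is scaled by gene length. Among the semaphorins, SEMA4D, a membrane-bound ligand of PLXNB1, had the highest median RPKM in pituitary (14.8), ahead of SEMA6D (6.46) and SEMA6A (6.43). SEMA7A, a membrane-anchored semaphorin that also acts on immune cells, led in long bone (23.9), ahead of SEMA6D (12.7) and SEMA4D (9.46). Both neuropilins, co-receptors for secreted semaphorins and for VEGF, had higher medians in long bone (38.4 for NRP1 and 59.0 for NRP2) than in pituitary (8.80 and 7.67). The leading plexins were PLXNB2 (22.3), PLXND1 (6.72) and PLXNB1 (4.13) in pituitary, and PLXND1 (35.1), PLXNB2 (21.8) and PLXNA2 (18.4) in long bone.

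SLIT1 had the highest median RPKM of the SLIT ligands in pituitary (10.2, against 6.93 for SLIT2 and 3.06 for SLIT3) and the lowest in long bone (0.325, against 23.3 for SLIT2 and 9.45 for SLIT3). Of their receptors, ROBO1 (5.15), ROBO3 (2.64) and ROBO4 (2.44) led in pituitary, and ROBO4, a receptor of blood vessel endothelium (9.66), ROBO2 (6.85) and ROBO1 (4.48) in long bone. Netrin levels were low, with NTN4 (4.28), NTN1 (1.65) and NTN3 (0.275) in pituitary and NTN1 (8.40), NTN4 (4.06) and NTN3 (0.045) in long bone. Of the UNC5 receptors, UNC5C led in both tissues (6.06 and 8.14). It was followed by UNC5D (4.31) and UNC5A (2.92) in pituitary and by UNC5B (5.40) and UNC5D (0.26) in long bone. Netrin receptors outside the member rule, such as DCC, were not ranked.

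EFNA1 was the highest ephrin in both tissues, at a median of 21.0 RPKM in pituitary and 54.2 in long bone. Next came EFNB2 (12.8) and EFNA5 (5.66) in pituitary, and EFNB1 (15.6) and EFNB2 (13.7) in long bone. The leading Eph receptors differed, being EPHA4 (4.55), EPHB1 (3.29) and EPHA1 (3.26) in pituitary and EPHB4 (14.1), EPHA6 (5.89) and EPHA3 (5.56) in long bone. These orders are of medians over 12 libraries, were not tested and differed between groups. In MHPJ the highest group medians were those of EPHA5 (24.7 RPKM) among Eph receptors and ROBO2 (14.5) among ROBOs, in DPPJ EPHA1 led EPHA4 (3.81 against 2), and in MHLBJ EPHA6 led EPHB4 (23.4 against 14.4); these were picked after their values were seen. EPHA8 and NTN5 stayed under the filter on low counts in every comparison, with at most 35 and 6 reads in any library, and 52 of the 61 members passed it in all 11 comparisons.

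**Figure D1:**
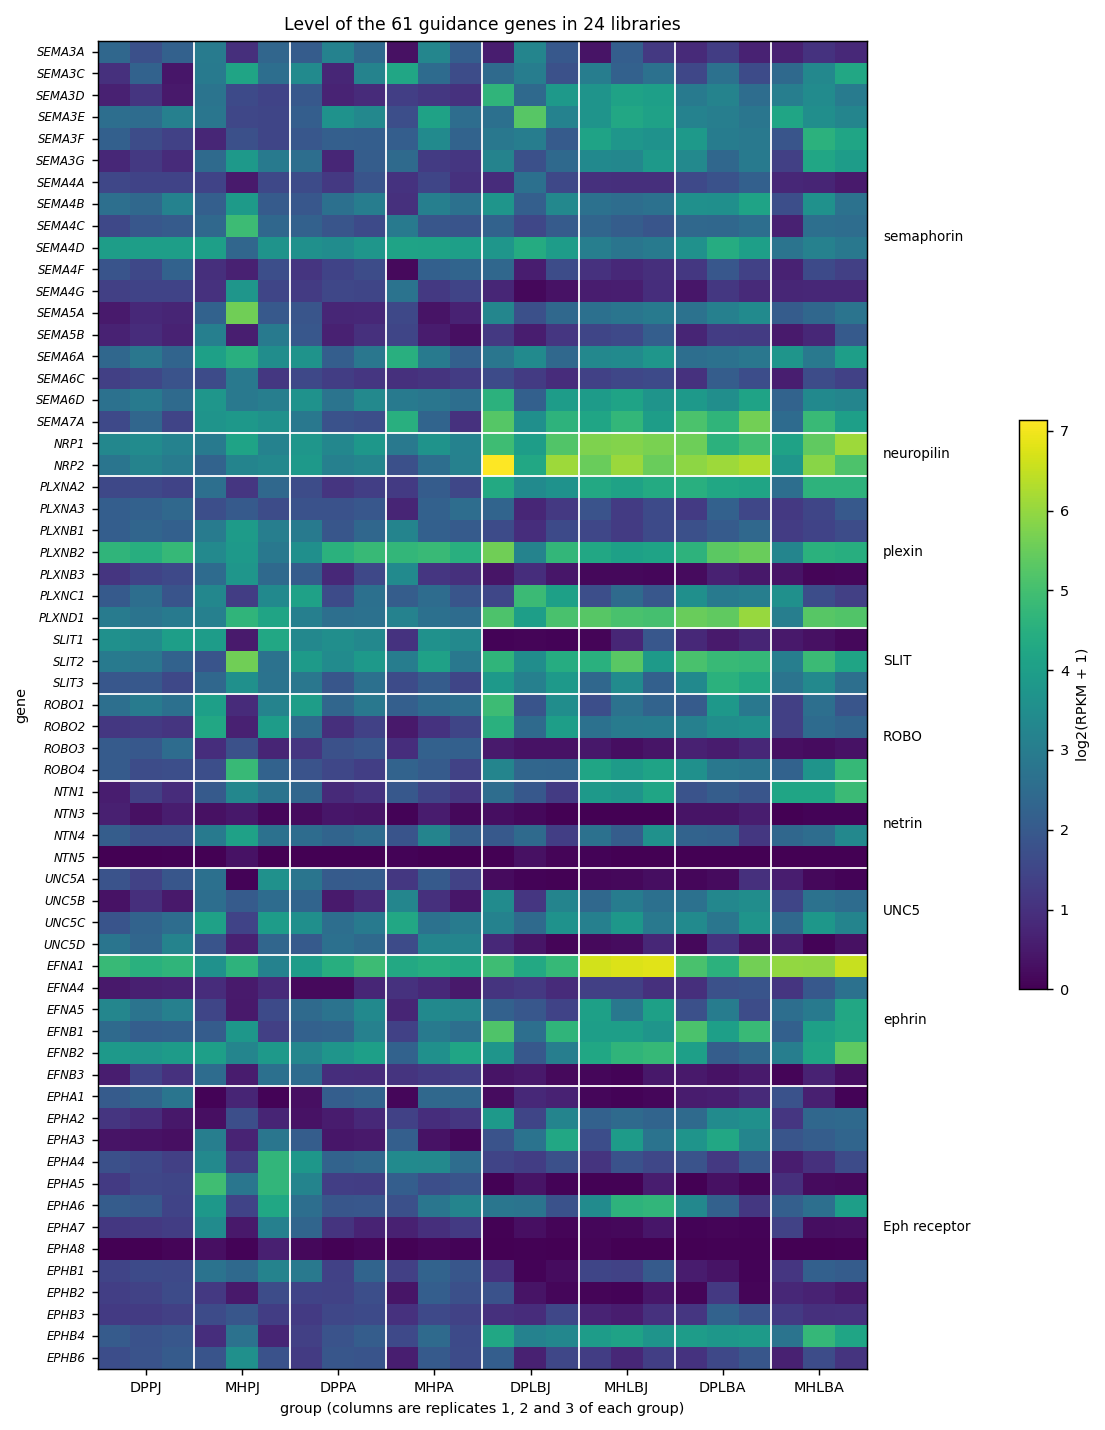
Level of the 61 members as log2(RPKM + 1) (colour), with 1 row per gene, grouped by family, and 1 column per library, grouped by breed, tissue and stage. NRP1, NRP2, PLXND1 and EFNA1 are bright in most long bone libraries, EPHA8 and NTN5 are dark throughout, and single libraries such as MHPJ replicate 2 (SEMA5A, SLIT2) differ from the other libraries of their group.

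Pituitary and long bone were compared first, to learn where the members are expressed. A gene was called at an unadjusted P under 0.05 with a fold change over 2 in edgeR's quasi-likelihood test, and adjusted p-values (Benjamini-Hochberg, over all genes tested) are given beside it. Of 59 members tested, 38 were called, 16 higher and 22 lower in pituitary, where 38.9% of all genes were called (21.5% higher and 17.4% lower). All 38 also had an adjusted p under 0.05, as did 38.3% of all genes with such a fold (21.2% higher and 17.1% lower). The share of members was 64.4%, and the median log2 difference was -0.22 over the members and 0.03 over all genes. In such bulk samples, fewer cells of a type and less RNA per cell cannot be told apart.

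The lowest P of the members were those of PLXNA2, NRP1 and NRP2, all lower in pituitary. PLXNA2, a receptor for secreted semaphorins, was at 10.4 to 44.6 CPM in the 12 pituitary libraries (median 15.4) and 70.6 to 211 in the 12 long bone libraries (median 170), a log2 difference of -3.07 (SE 0.239, adjusted p 6.38e-09). NRP2 was at 12 to 68.2 CPM (median 34.7) against 94.6 to 760 (median 288), a log2 difference of -3.10 (SE 0.293, adjusted p 6.15e-08). The tissues did not overlap for either gene. NRP1 was at 23.4 to 62.7 CPM (median 31.5) against 60.6 to 223 (median 140; log2 difference -2.05, SE 0.187, adjusted p 4.18e-08), and PLXND1, a receptor for SEMA3E on endothelium, at 24.7 to 153 CPM (median 37.9) against 69.2 to 419 (median 211; -2.19, SE 0.227, adjusted p 1.82e-07). For both, the highest pituitary library lay above the lowest long bone library.

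EPHB4, the receptor for EFNB2 on osteoblasts and veins, was the third member without overlap, at 3.04 to 24.5 CPM in pituitary and 38.6 to 112 in long bone (log2 difference -2.54, adjusted p 1e-06). No member lay without overlap above long bone, so 3 of 59 members did not overlap, where 7.52% of all genes did not (4.87% higher and 2.65% lower). The other called members lower in pituitary with the smallest P were SEMA3D (-2.99), EPHA2 (-2.78), EFNB1 (-2.03), SEMA3F (-1.88), NTN1 (-1.84), EFNA1 (-1.52) and SLIT3 (-1.49). They are secreted or membrane-bound ligands, except EPHA2, a receptor for A-type ephrins such as EFNA1.

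ROBO3, a ROBO family receptor known from axons that cross the midline, was higher in pituitary, at 3.87 to 24.1 CPM (median 14.1) against 0.972 to 4.31 in long bone (median 1.88; log2 difference 2.59, SE 0.267, adjusted p 1.78e-07). SLIT1, the SLIT found mainly in the nervous system, was at 2.69 to 117 CPM (median 56.1) against 0.229 to 16.6 (median 2.26; 4.74, SE 0.585, adjusted p 1.5e-06). The ranges of the tissues overlapped for both genes. PLXNB3, a plexin of oligodendrocytes, was at 5.75 to 97.3 CPM (median 13.4) against 0.635 to 7.74 (median 1.95; 3.47, SE 0.475, adjusted p 5.06e-06). EPHA5, an Eph receptor of neurons, was at 5.56 to 128 CPM (median 9.29) against 0 to 6.72 (median 0.403; 4.36, SE 0.66, adjusted p 1.59e-05).

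The other named members higher in pituitary were UNC5A (log2 difference 3.97), UNC5D (3.38), EPHA7 (3.25), EFNB3 (2.60), SEMA4G (1.92), EPHB1 (1.75), EPHA4 (1.71) and PLXNB1 (1.27). By family, 6 Eph receptors were higher and 3 lower, 2 semaphorins higher and 6 lower, 2 plexins higher and 2 lower, 2 UNC5 receptors higher and 1 lower, and 1 ephrin higher and 3 lower. Both neuropilins were lower, while SLITs and ROBOs had 1 member higher and 2 lower each, and the netrins 1 of each.

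Without the 5 pituitary libraries with little hormone RNA, 41 members were called, 14 higher and 27 lower, and EPHA4 (0.92) and PLXNB1 (0.52) were no longer called. Within single strata the count ran from 24 (14 higher, 10 lower) in juvenile MHs to 35 (10 higher, 25 lower) in juvenile DPs. The share of all genes given above is that of the fit of all 24 libraries. Counts of these smaller fits have no such share beside them and are not read as particular to the members. The p-values treat libraries as independent although the tissues share animals.

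Other genes of the guidance pathways were read from lists of further cues and receptors and of signal transducers. Of 23 further cues and receptors tested, 17 were called higher and 0 lower in pituitary, led by NRCAM (6.56, adjusted p 3.91e-11), NFASC (5.92, adjusted p 1.93e-12) and LRRC4C (5.10, adjusted p 2.17e-10), all adhesion proteins of neurons. Of 46 transducers tested, 11 were called higher, among them the neuronal proteins DPYSL5 (6.49) and CRMP1 (6.43) and the GTPase RND1 (2.42). A further 8 were called lower, led by VASP (-2.23), an actin regulator, VAV2 (-1.92) and FES (-1.92), a tyrosine kinase.

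**Figure D2:**
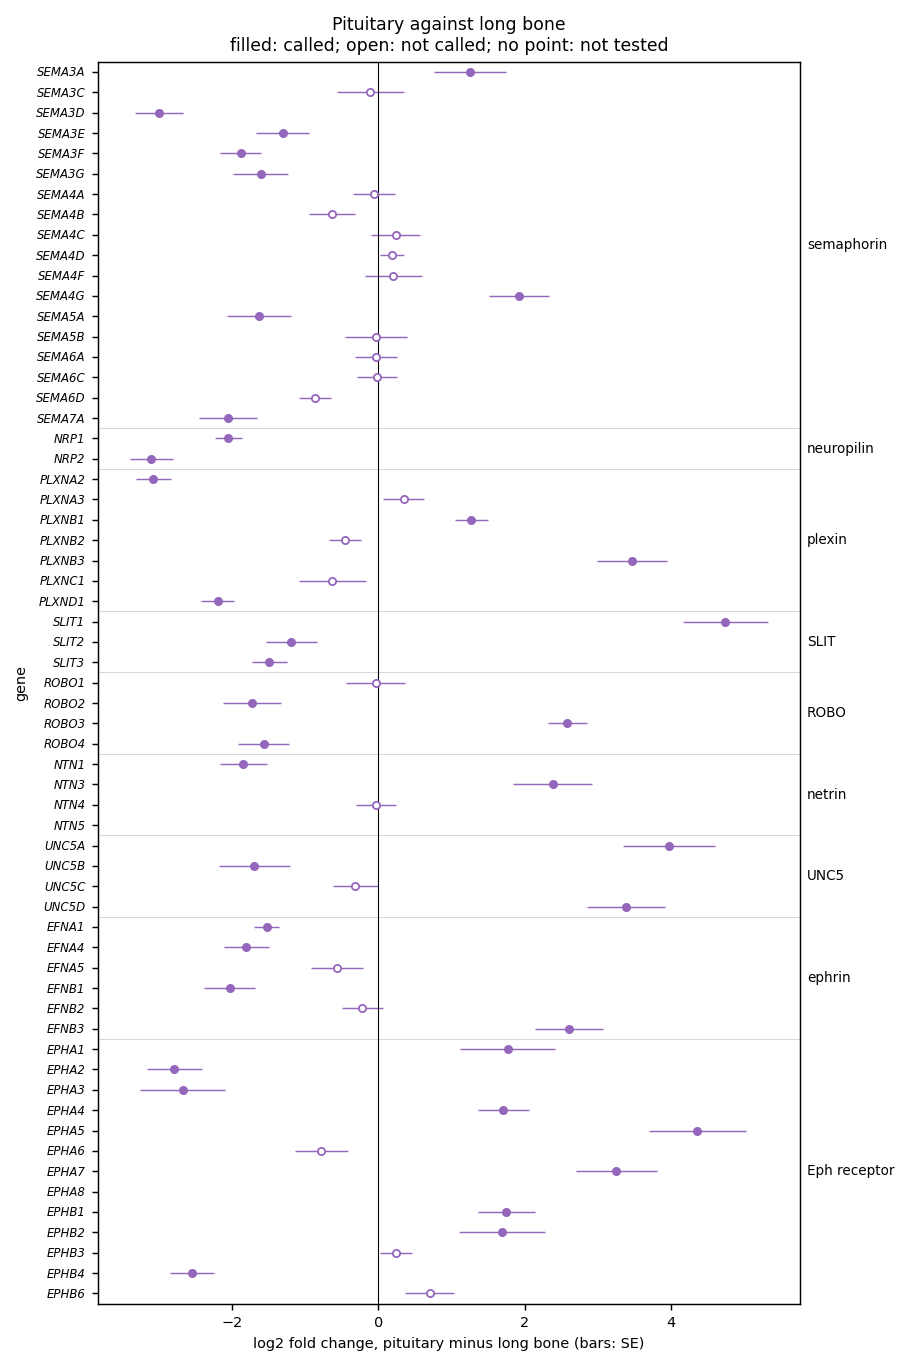
Log2 fold change of each member, pituitary minus long bone, with its standard error (bars), by family; filled points were called. Semaphorin co-receptors NRP1 (-2.05) and NRP2 (-3.10) lie to the left, and SLIT1 (4.74) and EPHA5 (4.36) farthest to the right.

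The breeds were compared within each tissue and stage, the comparison the study made to look for genes of body size. In the juvenile pituitary, 24 of 59 members were called, 3 higher and 21 lower in DPs, where 20.3% of all genes were called (7.6% higher and 12.7% lower). By adjusted p under 0.05, 10 members were called, all lower, where 8.73% of all genes were called (4.15% higher and 4.58% lower). This second count was 25 in DESeq2 (2781 of 14603 genes). In edgeR it was 0 without DPPJ replicate 1 (8 genes called), DPPJ replicate 3 (9 genes) or MHPJ replicate 3 (271 genes). It was 2 without DPPJ replicate 2 (223 genes) or MHPJ replicate 1 (171 genes), and 33 without MHPJ replicate 2 (4047 of 15071 genes). With the replicate number as a block it was 0 (0 genes), and in a model over all 12 pituitary libraries 1 (385 genes). The median log2 difference was -1.10 over the members and -0.07 over all genes. Of the 18 semaphorins, 8 were called lower and 0 higher; the Eph receptors had 5 lower and 1 higher, the plexins 3 lower and 1 higher, the netrins 2 lower, UNC5, ROBO and SLIT 1 lower each, and the ephrins 1 higher. The breeds did not overlap for 24 members (5 higher and 19 lower), where 40.9% of all genes did not (24.2% higher and 16.7% lower).

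EPHA5 was at 5.56, 7.63 and 7.43 CPM in DPPJ and 128, 27.6 and 117 CPM in MHPJ, a log2 difference of -3.77 (SE 0.6, adjusted p 0.0235). Another neuronal Eph receptor, EPHB1, was at 5.20, 5.95 and 5.55 CPM against 16.9, 14.1 and 27.0 CPM (-1.85, SE 0.297, adjusted p 0.0236). For both receptors all DPPJ libraries lay below all MHPJ libraries, and MHPJ replicate 2 was the lowest of the MHPJ libraries. SEMA7A was at 4.89, 10.1 and 4.26 CPM against 30.2, 35.3 and 31.2 CPM (-2.39, SE 0.382, adjusted p 0.0236). SEMA3G, a secreted semaphorin of blood vessels, was at 2.16, 3.58 and 2.38 CPM against 13.4, 42.7 and 21.1 CPM (-3.32, SE 0.535, adjusted p 0.0236). Neither semaphorin overlapped between the breeds.

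Next in order came UNC5B, a netrin receptor of endothelium (-3.20, adjusted p 0.0243), SEMA6A (-1.94, adjusted p 0.0295), EPHA3 (-4.28, adjusted p 0.0393), PLXNB3 (-2.38, adjusted p 0.0426), PLXNB1 (-1.59, adjusted p 0.0438) and the secreted ligand NTN1 (-2.81, adjusted p 0.0442). NTN4 (-2.01, adjusted p 0.0561) and SEMA5A (-5.11, adjusted p 0.0601) were called by the unadjusted P alone. The MHPJ libraries differed among themselves for several of these. SEMA5A was at 242 CPM in MHPJ replicate 2 and 17.9 and 15.6 CPM in the other MHPJ libraries, while EPHA3 was at 3.37 CPM in that library and 36.6 and 32.8 CPM in the others.

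EFNA5, a membrane-anchored ligand of EphA receptors, was higher in DPs, at 8.08, 5.26 and 6.88 CPM in DPPJ and 1.70, 0.421 and 2.16 CPM in MHPJ (2.18, SE 0.593, adjusted p 0.0677). PLXNB2, a widely expressed plexin for class 4 semaphorins, was at 150, 127 and 158 CPM against 57.5, 89.9 and 43.4 CPM (1.12, SE 0.311, adjusted p 0.0707). EPHA1, an Eph receptor of epithelia, was at 11.9, 14.0 and 21.0 CPM against 0.164, 2.78 and 0.190 CPM (3.86, SE 1.16, adjusted p 0.0839). The breeds did not overlap for any of the 3 genes, and their adjusted p-values were above 0.05.

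Marker lists moved with this comparison. Of 10 hormone genes tested, 9 were called higher in DPs. Summed CPM in DPPJ and MHPJ replicates 1 to 3 was 121, 3330 and 235 against 4870, 3440 and 4250 for astrocytes and pituicytes (1 of 6 tested called lower), 148, 1970 and 451 against 6750, 4560 and 5250 for oligodendrocytes (3 of 7 called lower), and 1390, 1530 and 1470 against 4630, 783 and 5580 for neurons (2 of 7 called lower). In MHPJ replicate 2 the Schwann cell list summed to 26100 CPM and the skeletal muscle list to 1000 CPM. Their part in the result was not tested. Without MHPJ replicate 2, 33 members were called, 6 higher and 27 lower, while the share of all genes went from 20.3% to 29.9%. The log2 difference of SEMA5A was then -2.58, of SEMA3G -2.69, of PLXNB3 -1.64, of NTN4 -1.29 and of EPHA1 6.39. Leaving out any other library gave 18 members or more, with 14.3% of all genes called at the lowest count (without DPPJ replicate 1). PLXNB2 lost its call without MHPJ replicate 3 (0.91), and UNC5B was at -3.90 without DPPJ replicate 2.

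Among the other cues and receptors of the pathway, 11 of 23 tested were called lower in DPPJ and 0 higher, led by NTNG1, a membrane-anchored relative of netrins (-2.65, adjusted p 0.00882), the netrin receptor NEO1 (-1.20, adjusted p 0.0217) and the adhesion protein CHL1 (-3.12, adjusted p 0.0309). Of the 46 transducers, 14 were called lower, led by FYN (-1.53, adjusted p 0.0167), MICAL3 (-1.04, adjusted p 0.0183) and PTK2 (-1.16, adjusted p 0.0269), which act on the cytoskeleton or its attachment. MET (1.39, adjusted p 0.049), the receptor for hepatocyte growth factor, was the transducer called higher.

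In the adult pituitary, 4 of 58 members were called, 3 higher and 1 lower in DPs, where 2.93% of all genes were called (1.75% higher and 1.18% lower). By edgeR's adjusted p under 0.05, 0 members were called (0.0348% of all genes), and 4 had an unadjusted P under 0.05 (9.11% of all genes). DESeq2 called 5 members by P and fold (3.76% of all genes) and 0 by adjusted p (133 of 14376 genes). SLIT3 was at 35.6, 15.3 and 26.2 CPM in DPPA and 12, 14.7 and 8.64 CPM in MHPA (1.15, SE 0.386, adjusted p 0.515). UNC5A, a netrin receptor of neurons, was at 27.9, 14.6 and 13.6 CPM against 6.06, 11.6 and 6.46 CPM (1.24, SE 0.423, adjusted p 0.515). Neither gene overlapped between the breeds. NRP2 was at 68.2, 37.0 and 37.8 CPM against 12, 19.8 and 32.6 CPM (1.18, SE 0.433, adjusted p 0.515), also without overlap. EPHA2 was at 1.19, 1.98 and 2.93 CPM against 7.10, 3.19 and 4.29 CPM (-1.24, SE 0.506, adjusted p 0.546), with every DPPA library below every MHPA library. In all, 5 members did not overlap, 3 higher and 2 lower, where 17.3% of all genes did not (8.33% higher and 8.99% lower).

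Leaving out single libraries changed these calls. Without DPPA replicate 1, the adult DP library with little hormone RNA, 0 members were called (3.24% of all genes), and the 4 log2 differences were 0.83 for SLIT3, 0.83 for UNC5A, 0.82 for NRP2 and -0.98 for EPHA2. Without MHPA replicate 1, 2 members were called (5.31% of all genes); without MHPA replicate 3, 1 (2.95%); and without DPPA replicate 2, 6 (3.27%). Without DPPA replicate 1 and MHPA replicate 1 together, 2 members were called (6.02% of all genes). SLIT3 (0.84), UNC5A (0.65), NRP2 (0.52) and EPHA2 (-0.60) were not among them. With the replicate number as a block, 2 members were called (4.12% of all genes). NRP2 (1.21, unadjusted P 0.0547) and EPHA2 (-1.22, unadjusted P 0.0796) were then not called, at nearly the same log2 differences. With library totals in place of TMM factors, the median of all genes shifted to -0.22. There 1 member was called lower and 0 higher (3.34% of all genes).

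Genes called in the juvenile pituitary, picked here after their values were seen, were also read in the 2 adult libraries with little hormone RNA. UNC5B was at 15.4, 1.62 and 2.74 CPM in DPPA and 33.9, 3.07 and 1.15 CPM in MHPA. EPHA3 was at 17.8, 1.84 and 1.93 CPM in DPPA and 18.9, 1.17 and 0.423 CPM in MHPA. In each group replicate 1, the library with little hormone RNA, was the highest for both genes. The same held for EPHA5, SEMA7A, SEMA3G, SEMA6A, PLXNB3, PLXNB1, NTN1 and SEMA5A, also named above as lower in juvenile DPs. SEMA7A was at 17.4, 6.49 and 5.52 CPM in DPPA and 60.3, 8.49 and 2.3 CPM in MHPA. That did not hold for EPHB1, at 20.9, 4.96 and 11.2 CPM in DPPA but 5.01, 9.89 and 7.37 CPM in MHPA. Nor did it hold for NTN4, at 11.3, 28.3 and 11.7 CPM in MHPA. Of the members higher in juvenile DPs, EPHA1 and EFNA5 were lowest in replicate 1 of both groups, and PLXNB2 in DPPA alone. The part of hormone content in these levels was not tested. By P and fold in edgeR's test, 0 of 22 other cues and receptors and 0 of 46 transducers were called; 0 and 3 of them had an unadjusted P under 0.05, and DESeq2 called 1 and 0. Of the marker lists, 0 of 10 hormone genes and 0 of 7 neuron genes were called or had an unadjusted P under 0.05, where DESeq2 called 0 and 2; the neuron list summed to 4600 CPM in DPPA replicate 1 and to 1640, 1020 and 1100 CPM in MHPA.

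**Figure D3:**
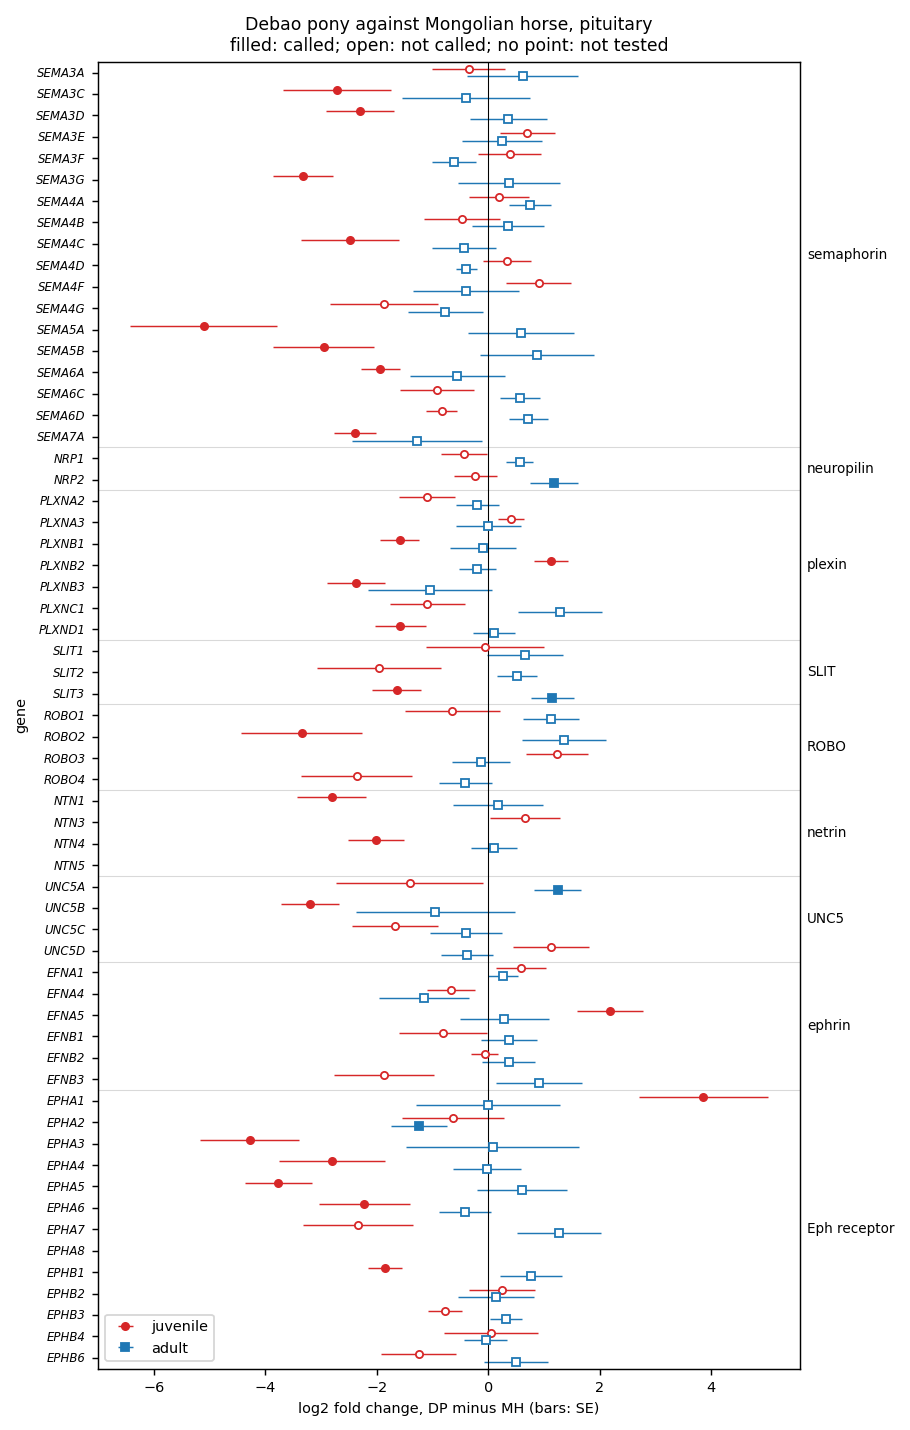
Log2 fold change of each member, DP minus MH, in the juvenile (circles) and adult (squares) pituitary, with its standard error (bars); filled symbols were called. Most juvenile points lie left of 0, with SEMA5A (-5.11) farthest and EPHA1 (3.86) the highest, while the 4 called adult points lie between -1.24 and 1.24.

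In the juvenile long bone, 16 of 54 members were called, 8 higher and 8 lower in DPs, where 13.8% of all genes were called (8.33% higher and 5.47% lower). By adjusted p under 0.05, edgeR called 0 members and 0% of all genes. An unadjusted P under 0.05 was found for 17 members (17.8% of all genes). DESeq2 called 19 members by P and fold (16.4% of all genes) and 9 by adjusted p (1209 of 13755 genes). When DPLBJ replicate 1 was left out, edgeR called 10 of 57 members and 1356 of 14397 genes by adjusted p. By P and fold it then called 17 members and 21.4% of all genes. Leaving out any other library kept the members called by adjusted p at 0. The breeds did not overlap for 15 members (5 higher and 10 lower), where 21.9% of all genes did not (9.59% higher and 12.3% lower). The median log2 difference was 0.08 over the members and 0.05 over all genes. With library totals in place of TMM factors, which moved the latter to -0.17, 5 members were called higher and 11 lower. Of all genes, 851 were then called higher and 1152 lower.

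The members called lower in DPs with the smallest P were mostly ligands. EFNA1 was at 25.7, 16.6 and 20.4 CPM in DPLBJ and 74.1, 84.3 and 83.9 CPM in MHLBJ (-1.94, SE 0.246, adjusted p 0.136), with an unadjusted P of 8.33e-05, the lowest of the members. NTN1 was at 9.06, 5.5 and 2.29 CPM against 21.7, 20.04 and 27.8 CPM (-2.03, SE 0.511, adjusted p 0.15). EFNA5 was at 4.04, 3.18 and 1.66 CPM against 15.04, 6.27 and 14.9 CPM (-2.01, SE 0.526, adjusted p 0.153). All DPLBJ libraries lay below all MHLBJ libraries for the 3 ligands. ROBO4 was at 38.8, 19.0 and 16.6 CPM against 68.9, 58.8 and 66.6 CPM (-1.38, SE 0.361, adjusted p 0.153), likewise without overlap. The other members called lower were EPHA6 (-1.84), EFNB2 (-1.48), SEMA5B (-1.13) and SEMA3F (-1.10).

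Higher in DPs were SEMA4D, a semaphorin that osteoclasts and lymphocytes make, at 57.6, 95.3 and 59.5 CPM against 29.3, 24.8 and 26.3 CPM (1.42, SE 0.299, adjusted p 0.136). PLXNB3 was at 2.72, 7.74 and 2.74 CPM against 0.836, 0.936 and 0.745 CPM (2.42, SE 0.613, adjusted p 0.15). EPHA1 was at 0.741, 3.47 and 2.40 CPM against 0.380, 0.187 and 0.397 CPM (2.80, SE 0.751, adjusted p 0.157). The breeds did not overlap for these 3 genes, and EPHA1 was near the level of 3 reads (0.112 to 0.259 CPM) in MHLBJ. PLXNC1, a plexin for SEMA7A found on myeloid cells, was at 10.95, 171 and 83.2 CPM against 11.6, 24.3 and 14.7 CPM (2.43, SE 0.871, adjusted p 0.226), and DPLBJ replicate 1 lay below every MHLBJ library. The receptors ROBO1 (1.97) and ROBO2 (1.27) and the ligands SEMA4A (1.68) and SLIT3 (1.08) were also called higher.

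Single libraries carried several of these calls. Without DPLBJ replicate 1, ROBO1 (0.78), ROBO2 (0.70) and SLIT3 (0.91) lost theirs. PLXNC1 (1.46), SEMA4A (0.61) and SEMA5B (-0.85) did so when DPLBJ replicate 2 was left out. Without DPLBJ replicate 3, SEMA3F (-0.77), SLIT3 (1.05), ROBO2 (1.28), EFNB2 (-1.40) and SEMA5B (-1.20) lost theirs. Without MHLBJ replicate 1, SEMA3F (-0.92), ROBO1 (1.70), ROBO2 (1.16), SLIT3 (0.88), PLXNC1 (2.22) and SEMA4A (1.69) did, and without MHLBJ replicate 2, ROBO1 (2.29), ROBO2 (1.31), SEMA4A (1.65) and SEMA5B (-1.27). Without MHLBJ replicate 3, PLXNC1 (2.31), ROBO1 (1.94), ROBO2 (1.30), SEMA4A (1.64), SLIT3 (0.80), EFNB2 (-1.40) and SEMA5B (-0.84) lost theirs, and the count was 10 (8.54% of all genes). EFNA1, NTN1, EFNA5, ROBO4, EPHA6, SEMA4D, PLXNB3 and EPHA1 kept their calls by P and fold whichever library was left out, PLXNB3 at 1.68 without DPLBJ replicate 2.

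Of the further cues and receptors, 2 of 19 tested were called higher, OMG (2.34) and FLRT3 (1.52), and 2 lower, CNTN1 (-1.95) and RGMB (-1.56). Of 45 transducers tested, 5 were called higher, led by CHN2 (1.15), VAV3 (1.26) and PAK1 (1.91), and 2 lower, MET (-1.56) and ABLIM3 (-2.21). None of these had an adjusted p under 0.05. Marker lists moved with the breed here too: 7 of 7 adipocyte genes were called lower in DPs (1770 to 4240 CPM against 7050 to 8770), 6 of 6 cartilage genes tested were called higher (54.7, 5960 and 21400 CPM against 12.9 to 19.5), and 3 of 3 granulocyte genes tested were called higher (9.22, 5320 and 1040 CPM against 2.20 to 69.1). Also called higher were 3 of 4 fibroblast genes, 3 of 9 osteoblast and osteocyte genes and 2 of 2 erythroid genes tested, and 4 of 4 skeletal muscle genes tested were called lower (0.972 to 2.14 CPM against 9.24 to 394). Of 7 endothelial genes tested, 2 were called lower (855 to 1460 CPM against 2190 to 2240). Their part in the members' differences was not tested.

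In the adult long bone, 19 of 59 members were called, 12 higher and 7 lower in DPs, where 18.3% of all genes were called (10.3% higher and 8.03% lower). By adjusted p under 0.05, 3 members were called, NTN1 lower and EPHA3 and ROBO2 higher, where 2.24% of all genes were called (1.74% higher and 0.497% lower). This second count was 9 in DESeq2 (1757 of 14073 genes). In edgeR it was 0 without DPLBA replicate 1 (0 genes called), 2 (4 genes) or 3 (0 genes) or MHLBA replicate 2 (0 genes). It was 1 without MHLBA replicate 3 (40 genes) and 6 without MHLBA replicate 1 (712 genes). With the replicate number as a block it was 1 (106 genes), as in a model over all 12 long bone libraries (18 genes). The breeds did not overlap for 24 members (18 higher and 6 lower), where 29.6% of all genes did not (16.6% higher and 12.9% lower). The median log2 difference was 0.44 over the members and -0.04 over all genes.

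NTN1 had the smallest P, at 4.35, 6.36 and 4.76 CPM in DPLBA and 45.0, 28.3 and 41.7 CPM in MHLBA (-2.97, SE 0.343, adjusted p 0.0215). EPHB1 was at 1.49, 1.12 and 0.170 CPM against 5.78, 10.99 and 9.10 CPM (-3.26, SE 0.735, adjusted p 0.0641). The DPLBA libraries lay below the MHLBA libraries for both genes. EFNA1 was at 26.5, 20.7 and 39.6 CPM against 75.4, 46.7 and 64.5 CPM (-1.19, SE 0.336, adjusted p 0.0956). EPHA7, a neuronal Eph receptor, was at 0.373, 0.560 and 0.340 CPM against 17.8, 1.42 and 1.34 CPM (-4.10, SE 1.17, adjusted p 0.0965). Neither overlapped, but the MHLBA level of EPHA7 came largely from MHLBA replicate 1. The ligands SEMA3C (-1.71), SEMA6A (-1.22) and NTN4 (-1.11) were also called lower.

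EPHA3, a receptor for EFNA5, was at 63.1, 109.8 and 47.2 CPM in DPLBA and 21.9, 16.9 and 18.7 CPM in MHLBA (1.87, SE 0.364, adjusted p 0.0461). ROBO2, a receptor for SLITs, was at 45.9, 71.4 and 68.9 CPM against 14.5, 27.1 and 21.1 CPM (1.51, SE 0.303, adjusted p 0.0498). All DPLBA libraries lay above all MHLBA libraries for both receptors. SEMA4A was at 6.46, 9.37 and 12.3 CPM against 3.79, 2.09 and 1.27 CPM (1.89, SE 0.536, adjusted p 0.0954), again without overlap. NTN3, a secreted netrin, had few reads, 9, 12 and 16 in DPLBA and 0, 2 and 1 in MHLBA (adjusted p 0.0742); the summed counts were 37 and 3, a ratio of 12 after scaling by library size (95% exact interval 3.79 to 60.7, which covers counting error only).

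The other members called higher were EPHA2 (1.42), SLIT3 (1.23), SEMA7A (1.20), SEMA4D (1.13), EFNB1 (1.06), UNC5B (1.04), PLXNB2 (1.04) and SEMA4B (1.03).

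Without DPLBA replicate 3, 9 members were called (13.3% of all genes), the lowest count, as EPHA2 (1.22), UNC5B (0.88), PLXNB2 (0.89), SLIT3 (1.19), SEMA7A (0.95), SEMA4B (0.83), EFNB1 (1.02), SEMA3C (-1.47), SEMA6A (-1.27) and NTN4 (-0.73) were not among them. Without DPLBA replicate 1, SEMA7A (1.27), SEMA4B (1.18), EFNB1 (0.86), SEMA3C (-1.41), SEMA6A (-1.11) and NTN4 (-1.28) lost their calls, and without DPLBA replicate 2, SEMA4D (0.84), EFNA1 (-0.98), PLXNB2 (0.92), SLIT3 (0.92), UNC5B (0.94), SEMA4B (1.11) and SEMA6A (-1.22) did. Without MHLBA replicate 1, 20 members were called, 12 higher and 8 lower, where 17.5% of all genes were called. Not among them were EFNA1 (-0.97), PLXNB2 (0.89), UNC5B (0.86), EFNB1 (0.73), SEMA4B (0.77), SEMA7A (0.88), SEMA6A (-0.77) and NTN4 (-1.06). Without MHLBA replicate 2, EFNB1 (1.23) was not called, and without MHLBA replicate 3, SEMA4D (0.97), SLIT3 (0.98), SEMA7A (1.11), SEMA4B (0.88), SEMA3C (-1.26) and NTN4 (-0.92) were not. NTN1, EPHB1, EPHA7, EPHA3, ROBO2, NTN3 and SEMA4A kept their calls by P and fold whichever library was left out, EPHA7 at -1.71 in place of -4.10 without MHLBA replicate 1.

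Of the further cues and receptors, 2 of 20 tested were called higher, RTN4R (4.45, adjusted p 0.0485) and OMG (3.47, adjusted p 0.0232), a receptor for myelin proteins and a ligand of that receptor, and 3 lower, CNTN1 (-2.47), LRRC4C (-2.33) and RGMB (-1.25). Of 45 transducers tested, 9 were called higher, led by VASP (1.30), PAK1 (1.23) and FES (1.14), and 3 lower, ABLIM3 (-2.49), MET (-1.88) and ABLIM1 (-1.72). Beside them, 3 of 3 granulocyte genes tested were called higher in DPs (772 to 1140 CPM against 3.65 to 52.6), as were 3 of 7 cartilage genes tested (10900, 649 and 24900 CPM against 1760, 28 and 133), 5 of 9 osteoblast and osteocyte genes (21800 to 34200 CPM against 3750 to 17300), 3 of 5 B cell genes (7.31 to 11.9 CPM against 2.46 to 4.57) and 2 of 4 fibroblast genes (11300 to 74900 CPM against 2770 to 17000). Called lower were 4 of 6 neuron genes tested (8.2 to 22.1 CPM against 17.5 to 71.8) and 2 of 2 skeletal muscle genes (1.02 to 1.68 CPM against 2.33 to 272). Of 7 endothelial genes tested, 1 was called lower (1190 to 1600 CPM against 984 to 3080). Their part in the members' differences was not tested.

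**Figure D4:**
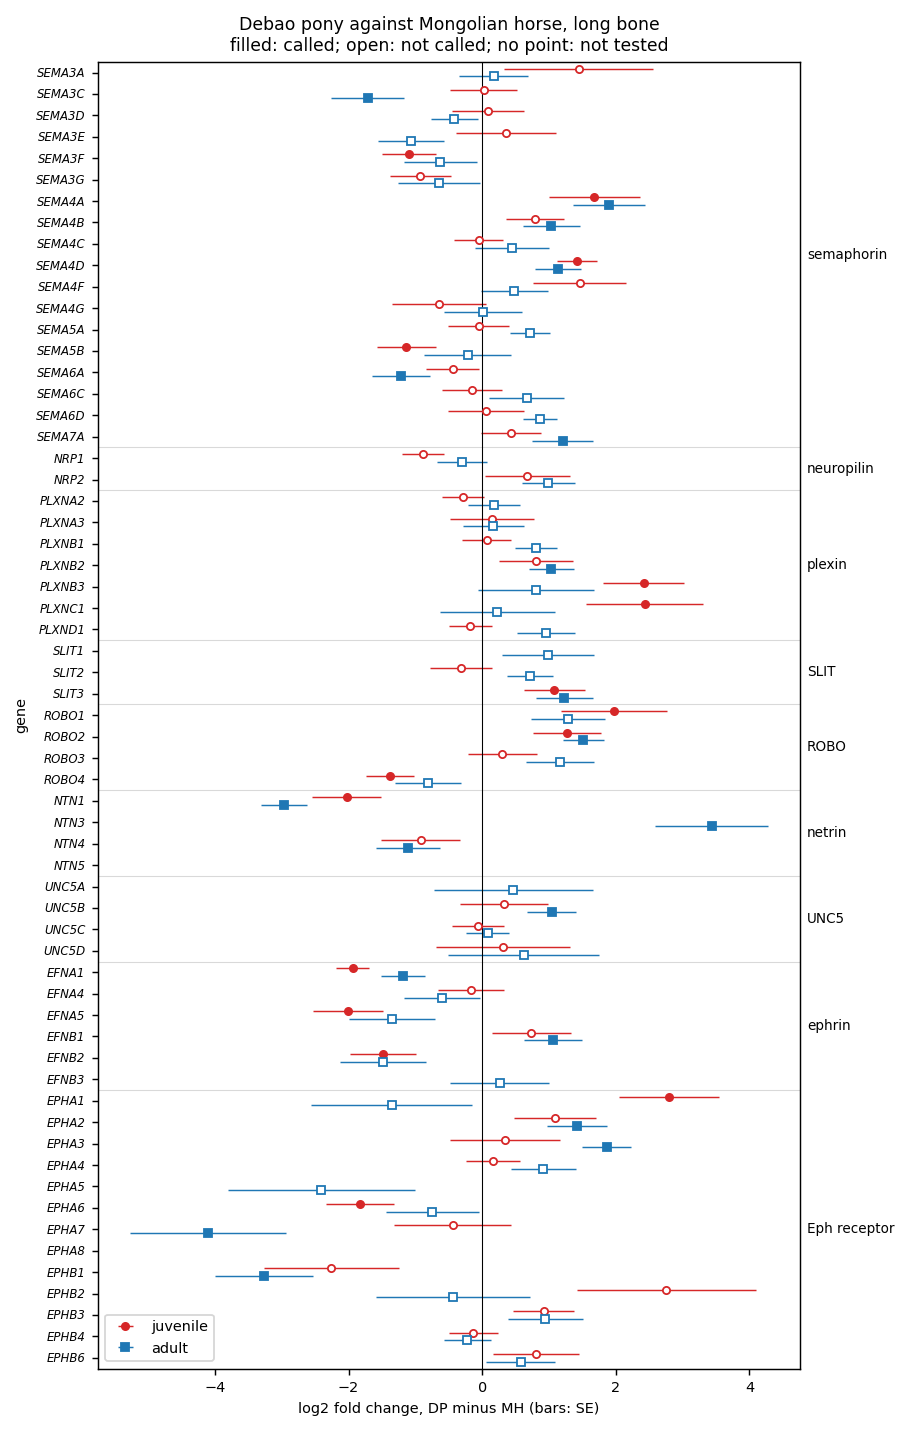
Log2 fold change of each member, DP minus MH, in the juvenile (circles) and adult (squares) long bone, with its standard error (bars); filled symbols were called. NTN1 and EFNA1 lie left of 0 at both stages with filled symbols, while EPHB1 (-3.26) and EPHA3 (1.87) were called in the adult.

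The juvenile and adult long bone comparisons share no library. Of the 54 members tested at both stages, 6 were called at both, all in the same direction. They are 37.5% of the 16 called in juveniles and 33.3% of the 18 called in adults; over all genes the shares were 50.5% and 39.3%. The direction was the same for 41 members (75.9%), against 72.5% of all genes. The 6 were the ligands NTN1 and EFNA1, lower in DPs, and the ligands SLIT3, SEMA4D and SEMA4A and the receptor ROBO2, higher in DPs.

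NTN1 alone of the 6 kept both calls by P and fold whichever library was left out. Over both stages, its DP libraries ranged from 2.29 to 9.06 CPM and its MH libraries from 20.04 to 45.0 CPM, without overlap. EFNA1 ranged from 16.6 to 39.6 CPM in DPs and from 46.7 to 84.3 CPM in MHs, again without overlap, but its adult call was lost without DPLBA replicate 2 (-0.98) or MHLBA replicate 1 (-0.97). SEMA4D ranged from 47.5 to 98.7 CPM in DPs and from 23.6 to 37.2 CPM in MHs. SLIT3 overlapped in juveniles, at 83.8, 47.7 and 73.2 CPM in DPLBJ and 22.4, 55.5 and 19.2 CPM in MHLBJ, and so did ROBO2, at 147, 30.7 and 89.8 CPM against 30.5, 40.8 and 39.9 CPM.

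**Figure D5:**
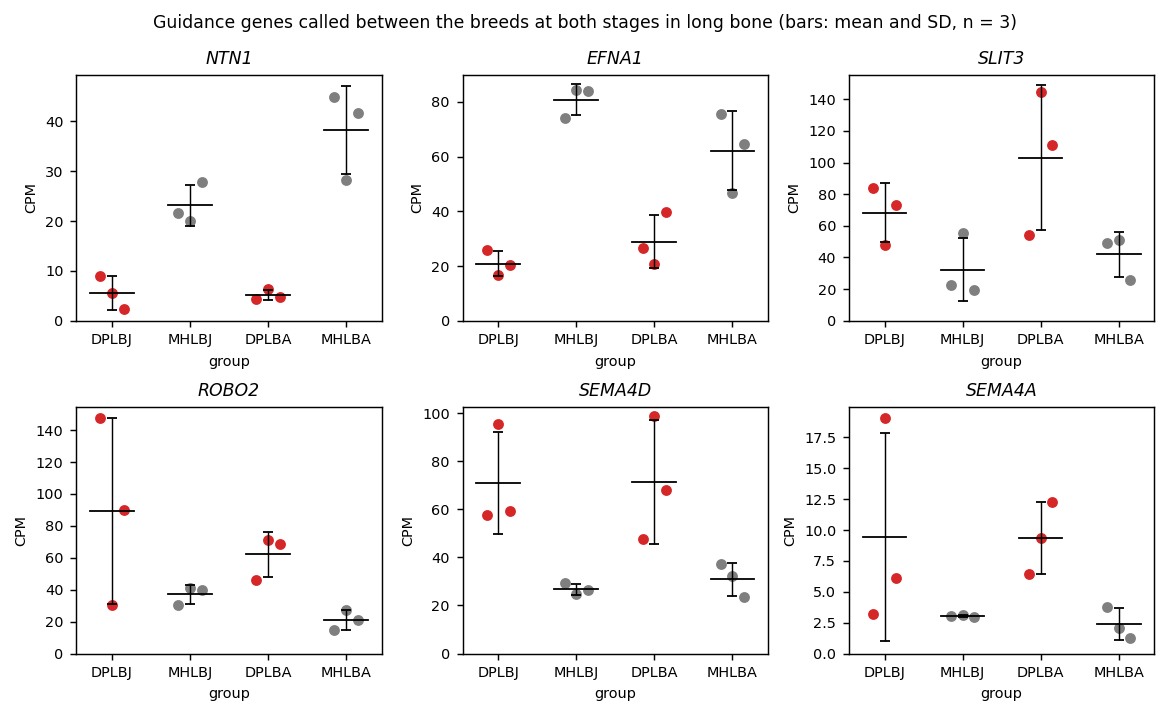
CPM of the 6 members called between the breeds at both stages in long bone, in each library of the 4 long bone groups (points), with the mean (line) and SD (bars, n = 3). DP points of NTN1 and EFNA1 lie below all MH points, and those of SEMA4D above them; SLIT3 and ROBO2 overlap at the juvenile stage.

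The stages were compared within each breed and tissue. By adjusted p under 0.05, edgeR called 0 members and 0% of all genes in all 4 comparisons. By adjusted p, DESeq2 called 4 members in MH pituitary (581 of 14430 genes) and 2 in DP pituitary (109 of 14533 genes). In long bone DESeq2 called 0 in MHs and 1 in DPs. Members with an unadjusted P under 0.05 numbered 12 in MH pituitary (11.7% of all genes), 11 in DP pituitary (11.7%), 7 in MH long bone (4.27%) and 1 in DP long bone (4.31%). In the MH pituitary, 12 of 58 members were called, 10 higher and 2 lower in juveniles, where 7.74% of all genes were called (4.5% higher and 3.24% lower). This comparison shares the MHPJ libraries with the juvenile breed comparison. Higher were the receptors ROBO2 (3.58), EPHA5 (3.001, SE 0.634, adjusted p 0.346), PLXND1 (1.63) and EPHB1 (1.41) and the ligand SLIT3 (1.76); lower were SEMA3F (-1.54) and PLXNB2 (-1.18).

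EPHA5 was at 128, 27.6 and 117 CPM in MHPJ and 15.9, 8.44 and 10.2 CPM in MHPA, without overlap. ROBO2 overlapped, at 105.7, 3.62 and 90.9 CPM in MHPJ and 2.58, 5.14 and 9.36 CPM in MHPA. The count was 5 without MHPA replicate 2 (4.4% of all genes), 6 without MHPA replicate 3 (4.39%) or MHPJ replicate 3 (5.95%), and 19 without MHPJ replicate 2 (14.3%). ROBO2 lost its call without MHPA replicate 1 (3.23) or 2 (3.55) or MHPJ replicate 1 (3.14) or 3 (3.29), PLXND1 without MHPA replicate 2 (1.49) or 3 (1.46) or MHPJ replicate 2 (1.19) or 3 (1.59), and SEMA3F without MHPA replicate 1 (-1.72) or 2 (-0.99) or MHPJ replicate 1 (-1.13) or 3 (-1.64). PLXNB2 lost its call without MHPJ replicate 3 (-0.97), while EPHA5, SLIT3 and EPHB1 kept theirs whichever library was left out. The hormone list, with 4 of 6 tested genes called lower in juveniles, moved with this comparison as well. The neuron list summed to 4630, 783 and 5580 CPM in MHPJ and 1640, 1020 and 1100 CPM in MHPA. In MHPJ replicate 2 the Schwann cell list summed to 26100 CPM. The part of these lists in the calls was not tested.

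In the DP pituitary, 6 of 59 members were called, all lower in juveniles, where 3.56% of all genes were called (0.929% higher and 2.64% lower). SLIT2 was at 36.6, 32.8 and 19.8 CPM in DPPJ and 83.4, 56.7 and 71.6 CPM in DPPA, without overlap (-1.28, SE 0.28, adjusted p 0.419). EPHA4 (-1.99), UNC5C (-1.13), SLIT3 (-1.01) and EPHA3 (-2.53) were also called. SLIT2 and EPHA4 kept their calls whichever library was left out, but EPHA4 was at 56.7 CPM in DPPA replicate 1 and 16.4 and 16.5 CPM in the other DPPA libraries, and at -1.12 without that library. Without DPPA replicate 1, 2 members were called (2.96% of all genes), not including EPHA3 (-0.59), UNC5C (-0.69) or SLIT3 (-0.69). The count was 3 without DPPJ replicate 3 (1.75% of all genes), where EPHA3 (-2.38) and SLIT3 (-0.82) were lost, and 16 without DPPA replicate 2 (7.66%). EPHA3 was also lost without DPPJ replicate 1 (-2.66) or 2 (-2.52), UNC5C without DPPJ replicate 1 (-0.94) or 2 (-1.13), and SLIT3 without DPPA replicate 3 (-0.98). The hormone list summed to 34500, 29900 and 30200 CPM in DPPJ and 42.2, 24600 and 11400 CPM in DPPA, with 0 of 10 genes called by P and fold. The astrocyte and pituicyte list summed to 121, 3330 and 235 CPM against 9830, 86.4 and 370 CPM (1 of 8 called lower), and the neuron list to 1390, 1530 and 1470 CPM against 4600, 1450 and 1350 CPM; their part in the result was not tested.

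In the MH long bone, 4 of 55 members were called, where 2.91% of all genes were called (0.763% higher and 2.14% lower). The receptor EPHA6 was higher in juveniles (1.24, SE 0.488, adjusted p 0.998), at 39.0, 96.6 and 98.7 CPM against 22.2, 20.6 and 54.8 CPM, with overlap. EPHB2 (-2.17), EFNA4 (-1.24) and SEMA3C (-1.06) were lower. Without MHLBJ replicate 2 the count was 1 (1.84% of all genes), and SEMA3C (-0.86), EFNA4 (-1.38), EPHA6 (1.05) and EPHB2 (-1.69) were not called. It was 2 without MHLBA replicate 1 (2.77%), where EPHA6 (1.05) and EPHB2 (-1.59) were lost, and 2 without MHLBJ replicate 3 (2.32%), where SEMA3C (-1.03), EFNA4 (-1.03) and EPHA6 (1.06) were. Calls were also lost without MHLBA replicate 2 (EPHA6 0.99, EPHB2 -2.29 and EFNA4 -1.31), MHLBA replicate 3 (SEMA3C -0.62 and EFNA4 -0.83) or MHLBJ replicate 1 (EPHB2 -1.88 and EFNA4 -1.34). With library totals in place of TMM factors it was 0 (2.68% of all genes).

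In the DP long bone, 1 of 56 members was called, where 3.14% of all genes were called (1.58% higher and 1.56% lower). SLIT1 had 3, 7 and 4 reads in DPLBJ, at 0.229 to 0.506 CPM, and 76, 60 and 77 reads in DPLBA, at 3.06 to 4.72 CPM, without overlap (-3.56, SE 0.612, adjusted p 0.988). It kept its call whichever library was left out. The count was 11 without DPLBJ replicate 1, where the share of all genes was 9.26% in place of 3.14%, and 4 without DPLBA replicate 1 (2.4%). It was 2 when DPLBA replicate 2 (4.07%) or DPLBJ replicate 2 (3.52%) or 3 (3.43%) was left out.

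Whether the breed difference itself changed with stage was tested as an interaction in each tissue. In the pituitary, 17 of 59 members were called, 1 with a more positive and 16 with a more negative DP minus MH difference in juveniles than in adults, where 15.7% of all genes were called (6.8% and 8.87%). By edgeR's adjusted p under 0.05 the count was 0; 17 had an unadjusted P under 0.05 (20.4% of all genes), and DESeq2 called 7 by adjusted p. The smallest P was that of SLIT3 (-2.75, SE 0.596, adjusted p 0.135), which was called lower in juvenile and higher in adult DPs. EPHA5 (-4.37), EPHB1 (-2.59), SEMA5A (-5.64) and ROBO2 (-4.70) followed, and PLXNB2 (1.34) was the positive one. Both breed differences carry the hormone-poor libraries described above. The count was 10 without DPPA replicate 1 (8.8% of all genes) and 26 without MHPA replicate 1 (24.8%) or MHPJ replicate 2 (21.7%). Without DPPA replicate 1 the values of EPHA5 (-2.90), EPHB1 (-1.97) and ROBO2 (-3.68) were closest to 0, and SEMA5A was at -3.20 without MHPJ replicate 2 and -6.88 without MHPA replicate 1.

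In the long bone, 3 of 58 members were called in the interaction, where 4.17% of all genes were called (2.54% with positive and 1.63% with negative values). EdgeR and DESeq2 each called 0 members when p was adjusted, and for 3 the unadjusted P was under 0.05 (4.48% of all genes). SLIT1 (-5.42, SE 1.46, adjusted p 0.971) was at 0.247, 0.506 and 0.229 CPM in DPLBJ, 0.456, 4.31 and 16.6 in MHLBJ, 4.72, 3.06 and 4.37 in DPLBA and 3.71, 1.46 and 0.597 in MHLBA. The breeds overlapped at both stages. Leaving out MHLBJ replicate 3 gave -3.88, and leaving out MHLBA replicate 1 gave -6.28. EPHA1 (4.11) and EPHA7 (3.60) had positive values, and MHLBA replicate 1 was the highest long bone library for both, at 15.4 and 17.8 CPM; without it the values were 1.77 and 1.28 and neither was called. Both were also lost without DPLBA replicate 1 (3.92 and 3.52), DPLBJ replicate 2 (3.60 and 2.51) or MHLBJ replicate 2 (3.82 and 3.34), and EPHA7 without DPLBA replicate 2 (3.85) or 3 (3.45) or MHLBJ replicate 1 (3.30). The count was 1 without DPLBA replicate 1, DPLBJ replicate 2 or MHLBJ replicate 2 (3.67%, 4.65% and 3.42% of all genes), but 7 when DPLBJ replicate 1 was left out (7.45%), 6 in the case of DPLBJ replicate 3 (4.13%) and 5 without MHLBA replicate 2 (5.98%).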

How the data were processed

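The authors trimmed the reads with Btrim and mapped them to the horse genome; the labels name TopHat2 and edgeR among their tools, while the study's methods name Salmon for transcript values and another sequencer and read layout than the labels. The libraries were directional, but what counted the deposited whole reads per gene, and whether it used strand, is not given in the sources used here. The deposited counts are without normalization, and the deposited RPKM values are scaled by gene length and library size; the latter served only for levels between genes. The members and lists were chosen with earlier results of these data known. How reads shared by paralogous family members were assigned is not given.

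The counts of the 6 libraries of a pair of groups (24 for the tissues, 12 for an interaction) were tested with edgeR 4.0.16 in R 4.3.3, by the quasi-likelihood test with TMM factors and filterByExpr at a minimum count of 10. Groups were taken from the labels, and the tissue contrast was set between the means of 4 pituitary and 4 long bone groups. Fold changes are log2. Each SE is the absolute log2 fold change divided by the square root of the test's F statistic, so it restates the test. P-values were adjusted over all genes tested by Benjamini-Hochberg. Exact permutation of 3 libraries against 3 cannot give a two-sided p below 0.1. Printed CPM share 1 TMM scale over all 24 libraries, on which 3 reads are worth 0.112 to 0.259 CPM. The steps were tested on simulated data. No pair of replicates agreed within sampling noise.

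Named were up to 12 called members per direction by lowest P for breeds and tissues (the first 4 with library values), up to 5 for stages and interactions, the top 3 per family and tissue by median RPKM, and up to 3 called genes per direction of each pathway list. Same-numbered libraries deviated together in each of the 3 pairs of the adult pituitary (r across genes 0.643, 0.549 and 0.385), and so did DPPA replicate 2 with MHPA replicate 3 (0.539) and DPPA replicate 3 with MHPA replicate 2 (0.377). Replicate 1 is the library with little hormone RNA in both groups (42.2 CPM in DPPA and 11.5 CPM in MHPA). DPPA replicate 1 had r of -0.567 and -0.564 with MHPA replicates 2 and 3. MHPA replicate 1 had r of -0.618 and -0.433 with DPPA replicates 2 and 3. A replicate block there puts the 2 hormone-poor libraries in the same block, and their part in these r was not tested. No label says that these numbers mark a shared animal or batch. Alternatives were other scaling, no filter, DESeq2 1.42.0, an adjusted p rule, a replicate block, shared fits and leaving out libraries.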

Additional observations from a re-analysis of the deposited data

Results flagged for a closer look

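The DP minus MH difference differed between juveniles and adults, by a test of the difference itself, for 17 of 59 members in the pituitary, where 15.7% of all genes were called, and for 3 of 58 in the long bone, where 4.17% were, a share near that of the members. By edgeR's quasi-likelihood test with Benjamini-Hochberg adjustment, no adjusted p was under 0.05; the lowest was 0.135 in the pituitary, and those of the long bone were 0.971. Values are the juvenile minus the adult log2 difference.

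In the pituitary the ligands had values of -2.75 (SLIT3, higher in adult and lower in juvenile DPs), -5.64 (SEMA5A), -3.85 (SEMA5B), -3.66 (SEMA3G), -2.65 (SEMA3D), -1.54 (SEMA6D), -2.95 (NTN1) and -2.07 (NTN4). The Eph receptors had values of -4.37 (EPHA5), -3.60 (EPHA7), -2.78 (EPHA4), -2.59 (EPHB1) and -1.07 (EPHB3). Of the other receptors, ROBO2 was at -4.70, PLXND1 at -1.66, NRP2 at -1.38 and PLXNB2 at 1.34. MHPJ replicates 1 to 3, DPPA replicate 1 and MHPA replicate 1, the pituitary libraries with little hormone RNA, all enter this test, and their part in it was not tested beyond leaving out single libraries.

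In the long bone, SLIT1 was at -5.42, EPHA1 at 4.11 and EPHA7 at 3.60. The EPHA1 and EPHA7 values were 1.77 and 1.28 without MHLBA replicate 1, and neither was then called.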

How the results depend on the processing

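The rule of P and fold decided most counts. With edgeR's adjusted p under 0.05 as the rule, the members called went from 24 to 10 in the juvenile pituitary, from 4 to 0 in the adult pituitary, from 16 to 0 in the juvenile long bone, from 19 to 3 in the adult long bone, from 12, 6, 4 and 1 to 0 in the stage comparisons (MH pituitary, DP pituitary, MH long bone, DP long bone), and from 17 and 3 to 0 in the pituitary and long bone interactions. Leaving out 1 library in turn gave 18 to 33, 0 to 6, 10 to 22 and 9 to 24 members in the 4 breed comparisons, 5 to 19, 2 to 16, 1 to 5 and 1 to 11 in the stage comparisons, 38 to 39 between the tissues, and 10 to 26 and 1 to 7 in the interactions. At the lowest and highest counts by breed, 14.3% and 29.9%, 3.24% and 3.27%, 8.54% and 14.5%, and 13.3% and 20.4% of all genes were called. For the pituitary stages these shares were 4.4% and 14.3% in MHs and 2.96% and 7.66% in DPs. Library totals in place of TMM factors gave 1 in the adult pituitary (3.34% of all genes), 0 in the MH long bone (2.68%) and 3 for the stages of the DP pituitary (3.22%). A model over all 12 libraries of a tissue gave 2 in the adult pituitary (3.19% of all genes) and 19 in the MH pituitary (11.6%). It gave 3 for the DP stages in either tissue (2.24% of all genes in the pituitary). DESeq2 gave 10 for the DP stages in the pituitary (5.1% of all genes) and 3 in the long bone, where no filter on low counts gave 4. Without DPPA replicate 1 and MHPA replicate 1, chosen after seeing the data, the adult pituitary gave 2 (6.02% of all genes). In juvenile MHs alone, 24 members were called between the tissues. Reversed between single strata and the tissue comparison were EPHA4 in juvenile DPs (-0.18), SLIT3 in juvenile MHs (0.27), and EPHA7 (-0.36) and EPHB1 (-0.27) in adult MHs. The cause was not tested.

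Under the replicate block the count was 2 in the adult pituitary (4.12% of all genes), where same-numbered libraries deviated together. Elsewhere only the number is shared. The count there was 2 in the DP pituitary (2.4% of all genes), 2 in the MH long bone and 1 in the long bone interaction. The other counts stayed within 1.5 times. Over settings that kept all libraries or left out more than 1, the named members gave 670 values on the same side of the threshold, 140 that lost their call and 4 that reversed. Over settings without 1 library these were 980, 130 and 0.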
